A study of Mus musculus with 4 samples.

Results

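Sox2 was the single gene examined here, among 6474 genes named in either of the deposited lists of Sp9 binding sites. It was chosen from its peaks, which were known from an earlier description of these lists. Its peak counts and distances are therefore given as a description without a test. The E13.5 list assigned 18 of 5847 peaks to Sox2 and the E16.5 list 17 of 6022. Sp9-bound DNA was pulled down with a rabbit antibody and sequenced (chromatin immunoprecipitation sequencing, ChIP-seq), from the basal ganglia of embryos of the CD1 mouse strain, wild type, taken on embryonic day 13.5 (E13.5) or 16.5 (E16.5). Each stage had 1 ChIP library and 1 input library without antibody, and no treatment or allele was named. No source used here gives the number of embryos behind a library. Binding lists hold no expression values, so the tissue label could not be checked against cell markers. Each peak is given by how many base pairs (bp) upstream or downstream it lies of the transcription start site (TSS) of a gene it was assigned to, on the mouse mm9 build. Peak height, width, chromosome position and read depth are not in the values used, and with 1 library per stage no difference between the lists has a replicate check.

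Sox2 encodes an HMG-box transcription factor of the SOXB1 group that holds neural stem and progenitor cells in an undifferentiated state and is lowered in most cells as they become neurons. Sp9 is a zinc finger factor of the SP/KLF family, a family known to bind GC-rich boxes, and is made in the ganglionic eminences and in young striatal neurons. Sox2 has a single exon and sits inside Sox2ot, a long noncoding RNA gene, in a wide region poor in protein-coding genes. Enhancers on both sides of Sox2, close to the gene and far from it, are known to drive it in neural progenitors. The lists give no coordinates, so whether any peak coincides with one of these enhancers was not tested.

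The lists differed at the Sox2 promoter. The E16.5 list held a peak 137 bp upstream of the TSS, and the E13.5 list held none within 1 kb, its nearest lying 4056 bp downstream. Of all protein-coding genes, 4.92% had a peak that near in the E13.5 list and 9.41% in the E16.5 list. These were 1077 and 2061 genes, so many genes besides Sox2 must have had a promoter peak at E16.5 alone. The number of such genes was not counted. Binding too weak to pass the threshold of the peak calling would not be listed. The RefSeq promoter of Sox2 is shown because the E16.5 peak falls inside its span, from 250 bases before to 50 after the annotated start (GRCm38.p6, chr3:34649745-34650044, plus strand). Capitals mark the GC box GGGCGG on either strand.
Sox2 promoter: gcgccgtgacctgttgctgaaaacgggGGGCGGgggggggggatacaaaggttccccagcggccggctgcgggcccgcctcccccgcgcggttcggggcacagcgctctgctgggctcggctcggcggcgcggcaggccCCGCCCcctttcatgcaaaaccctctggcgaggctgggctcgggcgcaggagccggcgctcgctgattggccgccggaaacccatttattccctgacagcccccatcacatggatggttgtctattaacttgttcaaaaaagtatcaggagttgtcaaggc
The GC box occurred at 2 places, from 223 to 218 bases upstream of the annotated start as GGGCGG and from 111 to 106 bases upstream as its reverse complement CCGCCC. Of 32851 RefSeq promoters of this length, 35.7% held at least 1 GC box and 19.5% held at least 2. Among the 1218 promoters of genes with an E16.5 peak in the same span, 78.2% held at least 1 and 54.4% at least 2, as the Sox2 promoter does. Searched on both strands, CCAAT occurred once in the Sox2 promoter, from 46 to 42 bases upstream, and CACCC, another sequence known to be bound by SP/KLF factors, did not occur. CCAAT was in 37.4% of all promoters and CACCC in 57.5%. Among promoters of genes with an E16.5 peak in the span, the shares were 39.6% for CCAAT and 64.6% for CACCC. The Sox2 window was 66.3% G or C, against a median of 52.7% over all promoters and 65.7% over those of genes with an E16.5 peak in the span. These 1218 promoters belong to 1003 genes, Sox2 among them, so a peak need not lie at each. The mm9 start used in the lists may differ from the annotated one, so the place of the peak within these bases is approximate, and a match is a description of the letters, not a site.

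Around the gene, the E16.5 list held more peaks. Within 50 kb of the TSS it held 5, 7285, 3808 and 137 bp upstream and 5929 and 14173 bp downstream, all within a span of 21458 bp. The E13.5 list held 2 peaks, at 4056 and 11660 bp downstream. Near peaks upstream of the gene were thus listed at E16.5 alone. The E16.5 list as a whole lay closer to genes, with 56.4% of its peaks within 50 kb of a listed TSS, beside 43.5% of the E13.5 peaks. At least 2 peaks within 50 kb were listed for 6.90% of the E13.5 genes and 8.07% of the E16.5 genes, and at least 5 for 0.269% and 0.421%.

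None of these near peaks was found at the same place in both lists. Peaks of the same gene in the other list, with TSS distances no more than 200 bp apart, were taken as the same position, and such a peak is called recurring. Recurring peaks made up 0 of the 2 near peaks at E13.5 (95% Wilson interval 0 to 65.8%) and 0 of the 5 at E16.5 (0 to 43.4%). Over all peaks within 50 kb of their nearest listed TSS, 59.9% of the E13.5 peaks recurred and 44.8% of the E16.5 peaks. The intervals are wide, cover counting error alone and treat neighbouring peaks as independent, which they may not be. The downstream peaks came closest to matching. The E13.5 peak at 4056 bp and the E16.5 peak at 5929 bp lay 1873 bp apart, and those at 11660 and 14173 bp lay 2513 bp apart. Both E16.5 peaks lay farther from the TSS. Over all genes, 26 pairs of peaks not matched more closely lay more than 1 kb and up to 3 kb apart, which is 0.445% of the E13.5 peaks, and 7 genes, Sox2 among them, had 2 or more such pairs. This range was set after the Sox2 gaps had been seen, so the place of Sox2 among the 7 is not a finding.

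Among 181 genes with at least 2 near peaks in each list, 3 (1.66%) had no near E13.5 peak that recurred: Sox2, Zeb2 and Tfap4. This count was made after the Sox2 peaks had been seen. Zeb2, which encodes a zinc finger homeobox repressor, and Tfap4, which encodes a helix-loop-helix factor, each had a near pair just past the limit, 324 and 203 bp apart. With a limit of 500 bp or 1000 bp Sox2 was the 1 gene left, and with 3000 bp none was. The filter and these limits were set after the Sox2 peaks had been seen, so the place of Sox2 here is not a finding.

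**Figure D1:**
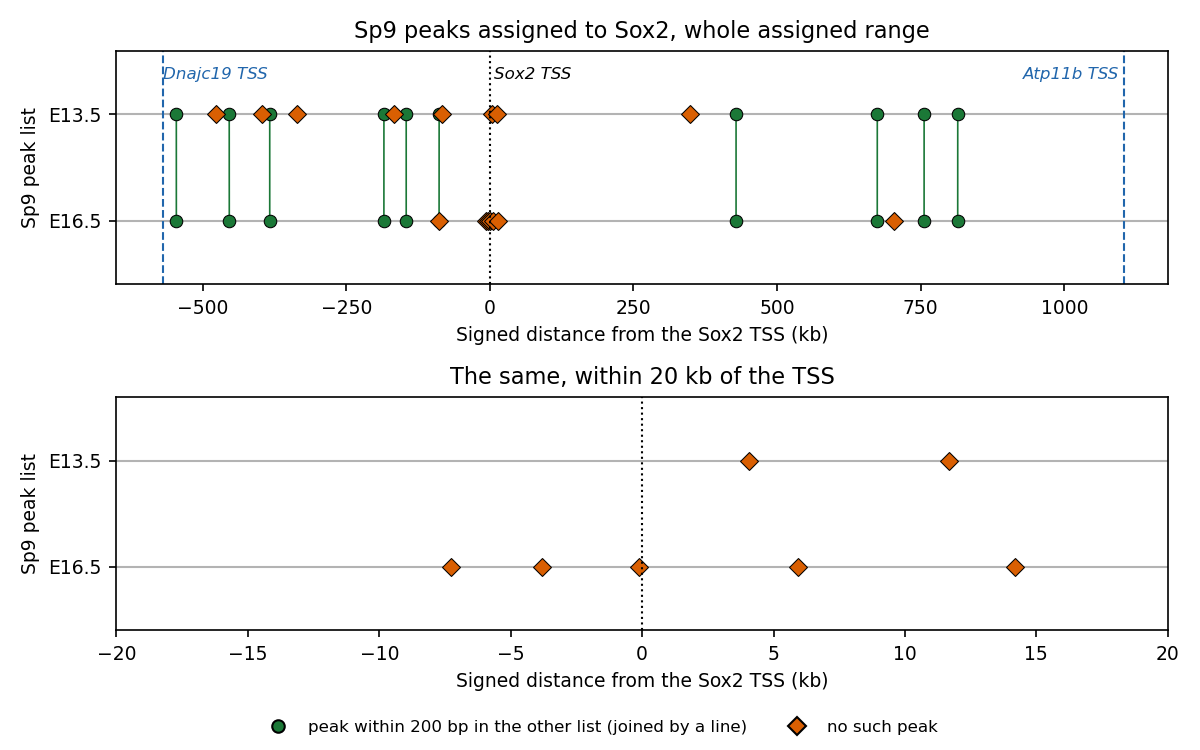
Signed distance of each Sp9 peak from the Sox2 TSS (kb, x axis) in the E13.5 and E16.5 lists (rows), over the whole assigned range (top) and within 20 kb (bottom). Green circles joined by lines are the 10 recurring pairs, orange diamonds the peaks without a partner within 200 bp, and dashed lines the starts of Dnajc19 and Atp11b. All circles lie beyond 50 kb, and the 2 E13.5 and 5 E16.5 peaks near the gene are diamonds.

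Far from the gene, peaks recurred at shares whose Wilson intervals include those over all far peaks, given below. Of the peaks more than 50 kb from the Sox2 TSS, 10 of 16 at E13.5 (62.5%, Wilson interval 38.6 to 81.5) and 10 of 12 at E16.5 (83.3%, 55.2 to 95.3) recurred. The outermost upstream position lay within 50 kb of Dnajc19, and without it the counts were 9 of 15 and 9 of 11. Over all peaks beyond 50 kb of their nearest listed TSS, which leaves out such positions, 56.3% and 70.9% recurred. With near and far peaks together, 10 of 18 (55.6%, 33.7 to 75.4) and 10 of 17 (58.8%, 36 to 78.4) recurred, against 57.9% and 56.2% of all peaks.

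Upstream, 6 far positions recurred. The outermost lay 545821 bp upstream in the E13.5 list and 545787 bp in the E16.5 list. The next lay at 453746 and 453625 bp, the farthest apart of all Sox2 pairs, and another at 383230 and 383227 bp. These 3 positions lay nearer to the start of Dnajc19 than to that of Sox2. The other 3 were nearer to Sox2, at 184442 and 184489 bp, at 145654 and 145657 bp, and at 88322 and 88431 bp upstream. The E13.5 list had 5 further upstream peaks without a partner, 476241, 397017, 335573, 167708 and 83164 bp from the TSS. The E16.5 list had 1 such peak beyond 50 kb, 87752 bp upstream. It lay 679 bp from the recurring peak at 88431 bp, so this position was marked by a pair of peaks at E16.5.

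Downstream, 4 far positions recurred, at 428550 and 428547 bp, 674393 and 674320 bp, 755905 and 755863 bp, and 814440 and 814371 bp. Each list had 1 more far downstream peak, at 348672 bp in the E13.5 list and at 702808 bp in the E16.5 list. Between the near peaks and these lay a long stretch without a peak, from 11660 to 348672 bp at E13.5 and from 14173 to 428547 bp at E16.5.

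The recurring Sox2 pairs lay within 200 bp of each other by definition. The differences in TSS distance were 3 bp in 3 pairs, and 34, 42, 47, 69, 73, 109 and 121 bp in the other 7. Their median was 44.5 bp, beside 38 bp over all 3383 recurring pairs. The E16.5 peak was displaced toward the upstream side in 7 pairs and toward the downstream side in 3. Direction was not counted over all recurring pairs, so this split cannot be called a trait of Sox2. The largest difference inside the 200 bp limit was thus 121 bp. The nearest case outside it was the E16.5 peak 87752 bp upstream, 570 bp from the E13.5 peak at 88322 bp, which already had a closer partner.

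**Figure D2:**
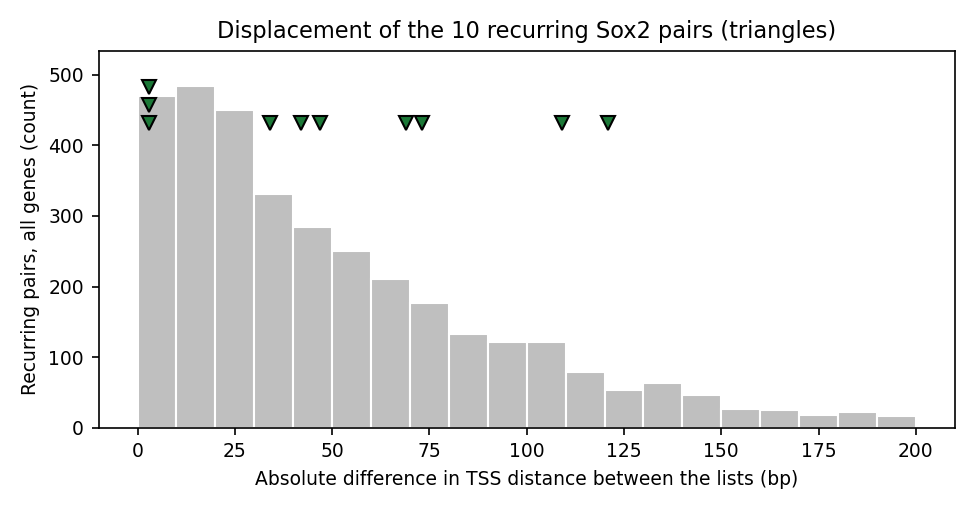
Absolute difference in TSS distance between the lists (bp, x axis) for all 3383 recurring pairs (grey bars, count of pairs in steps of 10 bp) and for the 10 Sox2 pairs (green triangles, whose height has no meaning). The Sox2 pairs lie between 3 and 121 bp.

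Most Sox2 peaks were also listed for a neighbouring gene, because the authors' assignment let a peak between genes belong to both flanking ones. Dnajc19, which encodes a mitochondrial J-domain protein, listed 11 of the 18 E13.5 peaks and 8 of the 17 E16.5 peaks. Atp11b, which encodes a phospholipid-transporting ATPase, listed 5 at each stage. These were all the peaks that either neighbour had. No gene other than these 2 listed a Sox2 peak. Sox2 alone listed 2 peaks at E13.5, those 4056 and 11660 bp downstream, and 4 at E16.5, those at 3808 and 137 bp upstream and at 5929 and 14173 bp downstream. These downstream peaks lay more than 1000000 bp from the Atp11b start, beyond the reach of the assignment. The upstream ones lay inside the 5000 bp upstream domain of Sox2. Listing for Sox2 alone thus depends on the assignment rule. The distances of the shared peaks placed the Dnajc19 start 568693 bp upstream of the Sox2 start and the Atp11b start 1104129 bp downstream of it, with the same values in both lists. By nearest start, 9 of the E13.5 peaks belonged to Sox2, 6 to Dnajc19 and 3 to Atp11b, and 10, 3 and 4 of the E16.5 peaks. The peak nearest to Dnajc19 lay 22872 bp upstream of its start in the E13.5 list and 22906 bp in the E16.5 list. The nearest to Atp11b lay 289689 and 289758 bp upstream. Neither neighbour had a promoter peak in either list. The 300 bases around their starts held 2 GC boxes for Dnajc19 and 10 for Atp11b.

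By number of assigned peaks Sox2 was among the leading genes of both lists. Its 18 peaks at E13.5 ranked 8 of 4826 genes, and its 17 at E16.5 ranked 3 of 5463, after Zfp608 with 24 and Cwc22 with 22. The median gene of each list had 1 peak. At least as many peaks as Sox2 were listed for 0.166% of the E13.5 genes and 0.0549% of the E16.5 genes. With 10 recurring peaks Sox2 shared rank 7 among 3815 genes named in both lists, of which 0.262% had 10 or more. Such totals grow with the length of gene-poor sequence around a gene, so they are not a measure of binding per gene. Sox2 was chosen with its peaks known, so its ranks are not a finding.

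**Figure D3:**
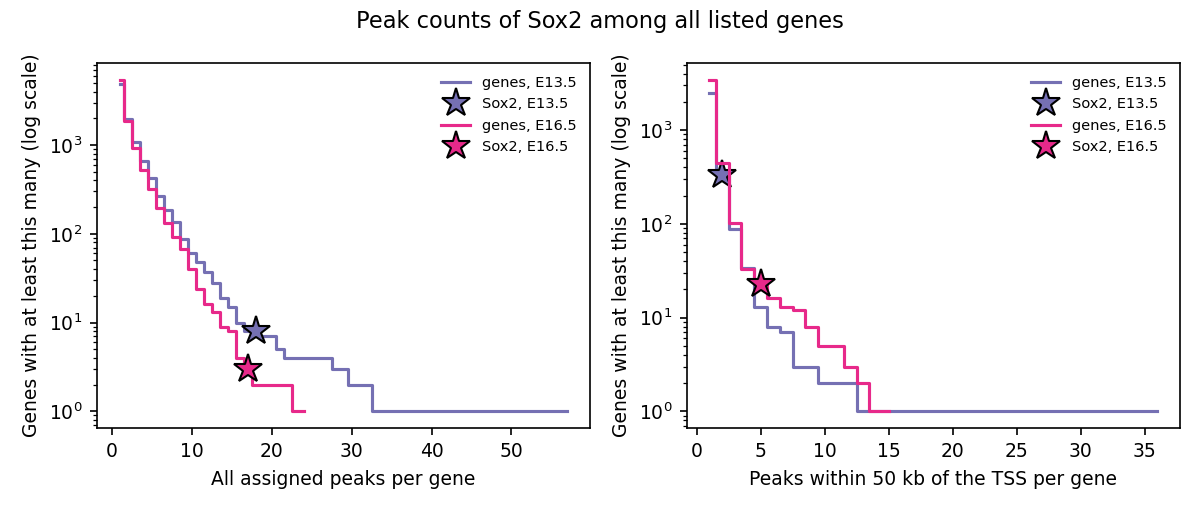
Number of genes (y axis, log scale) with at least a given number of assigned peaks (left, x axis) or of peaks within 50 kb of the TSS (right, x axis), in the E13.5 list (purple) and the E16.5 list (pink); stars mark Sox2. Sox2 stands far to the right for all assigned peaks, at 18 and 17, and moves from 2 to 5 for near peaks.

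Genes most like Sox2 were sought among the 3815 genes in both lists, by the summed absolute difference in 3 counts: near peaks at E13.5, near peaks at E16.5 and recurring peaks. The closest was the unnamed gene A230072I06Rik, with 3 near peaks at each stage and 10 recurring, a difference of 3. Tox3, which encodes an HMG-box protein, had 2 near peaks at each stage and 9 recurring. The predicted gene Gm11232 had 2 near peaks at E13.5, 1 at E16.5 and 10 recurring. Zfp703, a zinc finger gene, had 3 near peaks at each stage and 9 recurring. Pou3f3, which encodes a POU-domain factor of neural cells, had the same near counts as Sox2, 2 and 5, with 6 recurring. Tox3, Gm11232, Zfp703 and Pou3f3 all differed by 4, as did the corepressor gene Tle3. No gene had the same 3 counts as Sox2.

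At least 5 peaks within 50 kb at E16.5, as at Sox2, were listed for 0.421% of the E16.5 genes. That each of 19 other genes of neural stem and progenitor cells had fewer is therefore not a finding about such genes. In this list of 19, 4 (21.1%) had an E13.5 peak within 50 kb and 7 (36.8%) an E16.5 peak. Of all protein-coding genes, 10.8% and 15.1% had one. The list's median number of near peaks was 0 at both stages, as it was over all protein-coding genes. Of its SOX members, Sox1 and Sox3, the other SOXB1 genes, were in neither list. Sox21, a SOXB2 gene that opposes SOXB1 activity, had 1 peak in each list, 5459 bp downstream at E13.5 and 5768 bp downstream at E16.5. The positions lay more than 200 bp apart, so neither Sox21 peak was recurring. Sox9, which marks radial glia and glial progenitors, had none nearer than 235025 bp (E13.5) and 189325 bp (E16.5).

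Among the other members of that list, Pou3f2, whose product is a known partner of Sox2 in neural cells, had 2 near peaks at both stages, and its promoter peak lay 204 bp upstream in the E13.5 list and 246 bp in the E16.5 list. Notch1, the receptor that keeps progenitors cycling, had 1 peak 2953 bp downstream in the E13.5 list, with a partner at 3006 bp. Slc1a3, a glial glutamate transporter gene, had 1 peak 6522 bp upstream in the E13.5 list, with a partner at 6478 bp. Nes, the gene of the intermediate filament nestin and a known target of Sox2, had a peak 10156 bp upstream at E16.5 and was not in the E13.5 list. Chd7, a chromatin remodeller gene, had a near peak 43325 bp upstream at E16.5, and Emx2, a homeobox gene, one 8570 bp downstream at E16.5, with none near at E13.5. The other 9 genes had no peak within 50 kb at either stage. Among these, Pax6, a paired homeobox gene, and Nr2e1, a nuclear receptor gene of neural stem cells, came closest, with peaks 50470 bp downstream and 50993 bp upstream at E13.5.

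**Figure D4:**
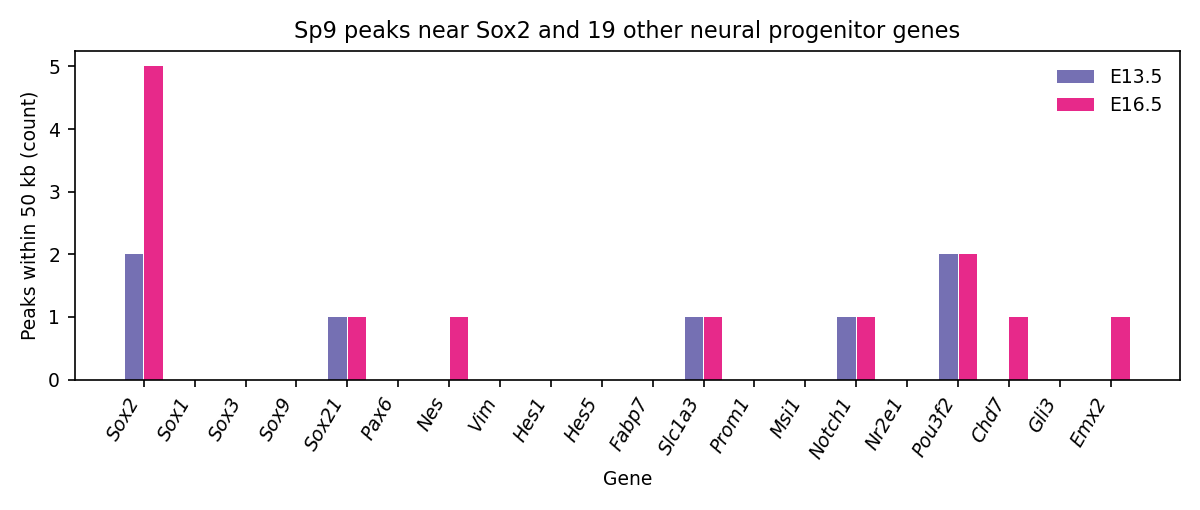
Number of Sp9 peaks within 50 kb of the TSS (y axis, count) for Sox2 and the 19 other neural progenitor genes (x axis) in the E13.5 list (purple bars) and the E16.5 list (pink bars). Sox2 has 5 at E16.5 and Pou3f2 has 2, and each of the other genes plotted has 1 or 0 in either list.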

How the data were processed

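The series has 4 libraries, 1 Sp9 ChIP and 1 input library at each of 2 stages, and the 2 ChIP libraries have the peak lists used here. Tissue was dissected, cross-linked and sheared, per the labels' protocols. Per the submitters' processing notes, the build was mm9 and the tools were MACS2 2.1.0, BWA 0.6.2, bcl2fastq 1.8.4 and CASAVA 1.8.2, with no roles stated. No source used here states the peak threshold. Each deposited value, per the file headers, is text with no standard unit (other), namely the numbered peaks of a gene with signed TSS distances. The authors gave each gene a domain from 5000 bp upstream to 1000 bp downstream, extended up to 1000000 bp, per the file headers. Neither depth nor height could be taken into account.

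Lettered entries of a peak number were counted as 1 peak. Peaks were paired one to one within a gene, closest first, and the pairing was tested on simulated data. The simulated shifts lay well inside or well outside the 200 bp limit, so cases near the limit were not tested. Gene names were matched by symbol or unambiguous synonym to RefSeq (GRCm38.p6), whose 21896 protein-coding symbols served as background, including genes in neither list. Promoter sequences are RefSeq's, 1 each for Sox2, Dnajc19 and Atp11b. Shares carry 95% Wilson intervals.

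Sox2, the progenitor list and the naming rule were chosen with earlier results of these data known, and 1 gene first put in that list is not reported here, nor counted in it. The rule named Sox2, genes sharing its peaks, list genes with a near peak, the 5 genes most like it (ties by total peaks, then name) and the genes of the adjoining peak numbers; Zeb2, Tfap4, Tle3, Pax6, Nr2e1, Zfp608, Cwc22, Sox1, Sox3, Sox9 and the genes of farther neighbouring peaks were chosen after their values were seen. Alternatives were other matching limits, windows and promoter widths. Analyses used Python 3.11.15, pandas 2.3.3, statsmodels 0.14.6 and matplotlib 3.10.9.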

Additional observations from a re-analysis of the deposited data

How the results depend on the processing

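Of the 18 E13.5 Sox2 peaks, 8 recurred within 100 bp, 10 within 200, 500 and 1000 bp, and 12 within 3000 bp, the last limit chosen after the data were seen. Of all E13.5 peaks, 50%, 57.9%, 60.1%, 60.5% and 60.9% recurred at these limits. The 3000 bp limit adds the downstream pairs 1873 and 2513 bp apart. Within 10000 bp of the TSS Sox2 had 1 peak in the E13.5 list and 4 in the E16.5 list, and within 100000 bp 4 and 7. E16.5 had more in each of these windows, but the windows are nested and count the same near peaks again. Counting lettered entries gave 2 and 5, as before. The promoter counts of 0 and 1 were the same within 500 and 2500 bp. Of the 19 progenitor genes, 4 and 5 had a peak within 10000 bp, beside 6.61% and 11.2% of all protein-coding genes. Within 100000 bp, 8 had one at each stage, beside 14.3% and 17.9%. Genes with at least 2 near peaks in each list and none recurring numbered 3 at 200 bp, 1 at 500 bp, 1 at 1000 bp and 0 at 3000 bp, limits added after the data were seen. A stricter peak threshold was not run, since the values hold no height or q. No paired analysis was possible because each stage has 1 ChIP library. Depth is unknown, so an absent peak may be one that was not detectable.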

Other observations

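The peaks numbered next to those of Sox2 differed in part between the lists. Over all protein-coding genes, 4.92% had a peak within 1 kb in the E13.5 list and 9.41% in the E16.5 list. Promoter peaks at E16.5 alone are therefore not particular to this neighbourhood. At E16.5 the peak before the Sox2 group lay 191 bp upstream of Fxr1, which encodes an RNA-binding protein related to FMRP, and the peak after it 60 bp upstream of Mccc1, which encodes a subunit of a mitochondrial carboxylase. Neither gene is in the E13.5 list, nor is Ttc14, whose promoter peak lay 86 bp upstream at E16.5. In the E13.5 list the peak before the Sox2 group was assigned to Ccdc39, a cilia gene, 61346 bp upstream of its start, and to Gm9791. It had a partner at E16.5, 61343 bp upstream of Ccdc39. The peak after the group at E13.5 lay 54 bp upstream of Spry1, an inhibitor of growth factor signalling, and Spry1 had one 81 bp upstream at E16.5 as well. The Sox2 peaks themselves carry consecutive numbers in both lists, 18 and 17 without a gap.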
